A study of Homo sapiens with 6 samples.

Results

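The genes described here are 55 genes of mitosis and of the passage from G2 into M phase: the cyclins and the kinase that start mitosis, the mitotic kinases, the spindle checkpoint, kinetochore subunits, kinesin motors, spindle microtubule proteins and cytokinesis factors. They were chosen by symbol, and every probe set of the Affymetrix U133 Plus 2.0 array whose annotation gives 1 of these symbols alone was taken. That gave 108 probe sets among the 54675 on the array, and 55 of the 19775 genes measured. Each gene was represented by the 1 of its probe sets whose mean signal was highest, and 27 of the 55 genes had more than 1. All 55 lay above the level set for testing, a mean log2 value of 5.11.

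Cyclin B bound to CDK1 drives entry into mitosis, after CDC25 phosphatases remove the inhibitory phosphates that hold CDK1 inactive. Kinetochores assembled on centromeres then attach chromosomes to the microtubules of the spindle, and the spindle checkpoint holds back the anaphase-promoting complex until every chromosome is attached. Most of these genes are transcribed in a wave that peaks in late G2 and mitosis, under FOXM1 and the MuvB complexes, so that their transcripts are abundant in dividing cells and low in cells that have left the cycle.

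The cells were KHOS and U-2OS, both established lines of human osteosarcoma. In each line 1 array held cells transfected for 48 hours with the miR-1 vector (miRSelect pEP-miR-1), 1 array cells transfected for 48 hours with the empty vector (miR-null, miRSelect pEP-miR-Null), and 1 array control cells, so 6 arrays were analysed. Both vectors went in with Lipofectamine LTX and Plus Reagent. The labels give no vector for control cells and do not say whether the reagent was added to them. Each array held RNA pooled from 3 flasks, so a value within 1 line stands alone. The p-values measure the spread between pooled arrays and between the lines, not between cultures. For a line difference in the vector change they measure the spread between the miR-1 and miR-null arrays of a line, not between the lines. miR-1 is a microRNA of heart and skeletal muscle, and its mature sequence is shown as that of the microRNA the miR-1 vector is named for. The sequence is RefSeq's (GRCh38.p14), and capitals mark the seed, bases 2 to 8.
hsa-miR-1-3p: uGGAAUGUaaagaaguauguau

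Array medians lay between 4.98 and 5.15 on the log2 scale. Interquartile ranges were 3.36, 3.32 and 3.24 on the KHOS miR-1, miR-null and control arrays, against 2.75, 2.84 and 3.07 in the same order for U-2OS, so the U-2OS vector arrays had the narrowest spread of values. Over probe sets, 2 arrays correlated at 0.978 to 0.996 within a line and at 0.910 to 0.937 across lines. Vimentin (VIM), a mesenchymal marker, was between 13.15 and 14.30 on every array, and COL1A1 and SPARC were at 10.07 or higher. Of the other mesenchymal and osteosarcoma markers, COL1A2 and ALPL were below the tested level, with values of 3.76 to 4.67. CDH11 had 10.18, 10.08 and 11.10 on the KHOS miR-1, miR-null and control arrays, against 4.09, 4.16 and 6.17 in U-2OS, and RUNX2 had 9.83, 9.85 and 8.98 against 4.23, 4.72 and 6.74. CDH2 lay between 7.80 and 9.94 and SPP1 between 5.36 and 8.82. The mature osteoblast genes SP7 and IBSP were below that level too, with values of 3.85 to 5.06. The leukocyte marker PTPRC lay between 3.53 and 3.75. Of the 3 blood markers measured, 1 reached the tested level, and the highest value among them was 5.36. Of the 3 endothelial markers measured 1 did, and their values ran from 3.59 to 6.54.

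The first comparison set the miR-1 and miR-null arrays together against the control arrays, which asks what transfection of either vector went with. The mitotic genes were lower on vector arrays as a body: 52 of 55 were lower on all 4 vector arrays than on the control array of the same line, against 25.1% of all 12958 genes tested. Most mitotic genes have high signals, and among genes with a mean of 8 or higher the count was 47 of 49 members, against 35.3% of all such genes. The fitted differences of the members ranged from -1.30 to -0.01 with a median of -0.62, a 1.54-fold lower level, while the median was -0.03 over all genes tested and -0.11 over those with a mean of 8 or higher. On all 4 vector arrays, 43 members were at least 1.2-fold lower, the size that the study's design set, against 6.2% of all genes.

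Single genes rarely passed the test with 6 arrays. In limma's moderated test, adjusted over all genes tested, 1 of 55 members fell, SPC24, against 0.123% of all genes that fell. At an unadjusted p below 0.05, 49 members were lower, against 13.3% of all genes. The median half-width of a member's 95% interval was 0.34 on the log2 scale. In such bulk samples, fewer cells in mitosis and less RNA per cell cannot be told apart.

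**Figure D1:**
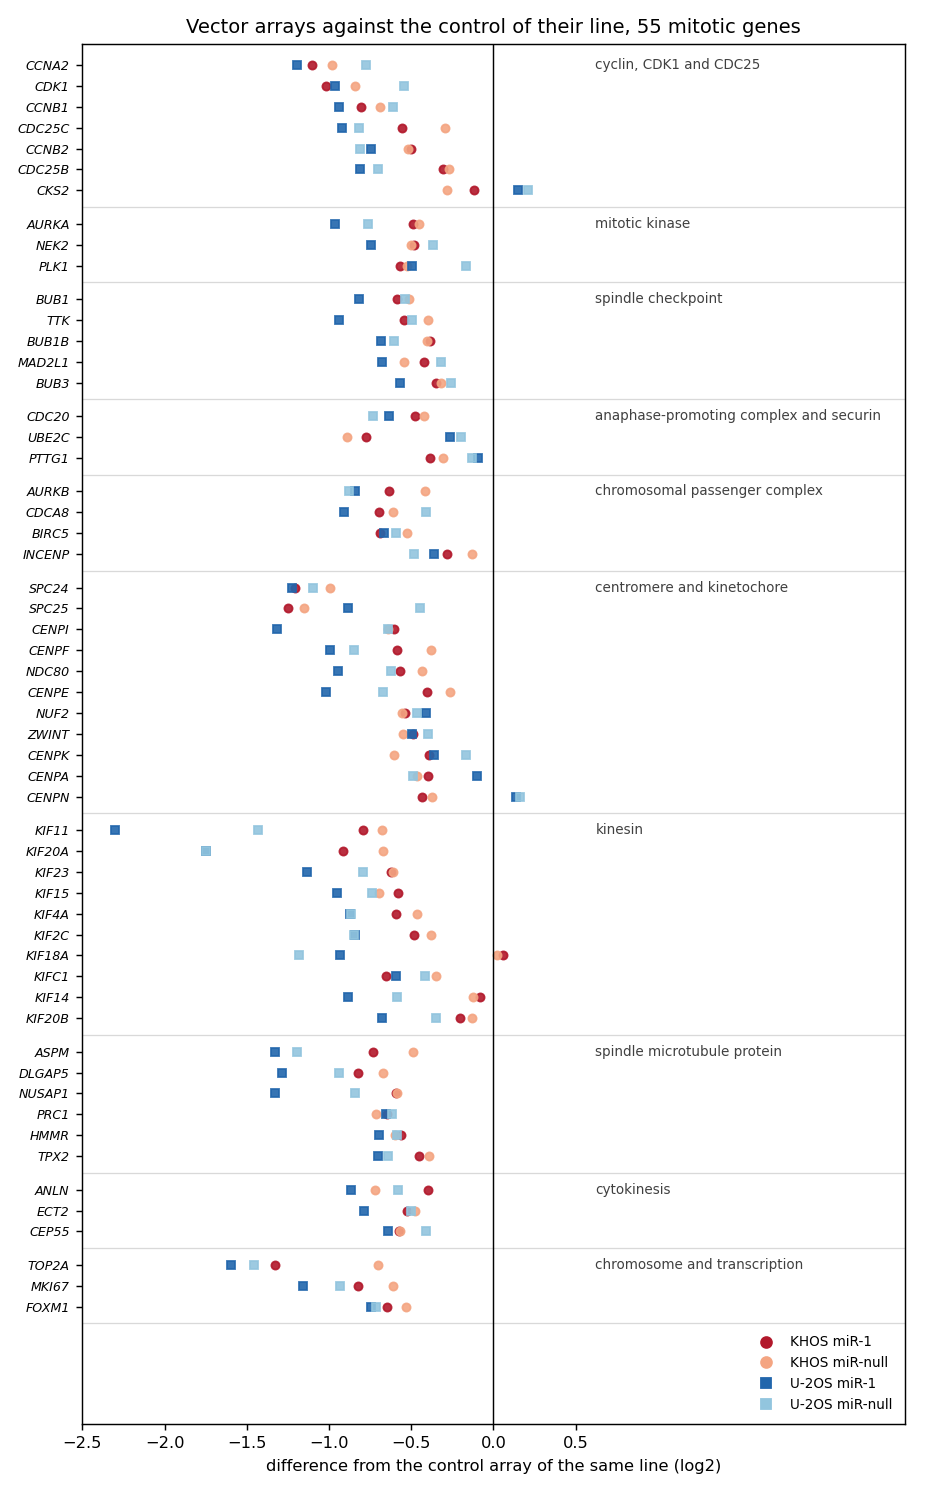
Difference between each vector array and the control array of the same line (log2, horizontal axis) for the 55 mitotic genes, grouped by role; circles are KHOS, squares U-2OS, darker symbols miR-1 and lighter symbols miR-null. The symbols of 52 genes lie wholly left of 0, and CKS2, CENPN and KIF18A have symbols on both sides.

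**Figure D2:**
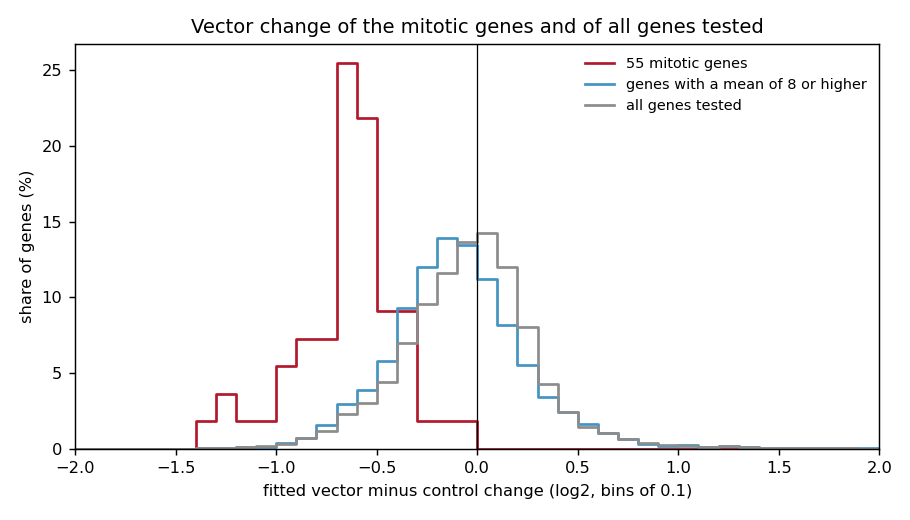
Share of genes (%, vertical axis) in each 0.1-wide bin of the fitted vector minus control difference (log2, horizontal axis), for the 55 mitotic genes, for all 5968 genes with a mean of 8 or higher and for all 12958 genes tested. The mitotic genes centre on -0.62, the genes with a mean of 8 or higher on -0.11 and all genes on -0.03.

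Several array measures differed along with the treatment. The mean of 18 spike-in probe sets was 9.93, 10.13 and 9.76 on the KHOS miR-1, miR-null and control arrays, and for U-2OS 11.65, 11.33 and 10.81, higher on the vector arrays of both lines. The difference between the 3' and 5' actin control probe sets, a measure of RNA integrity, was 2.90, 2.89 and 2.68 on the KHOS arrays, and on the U-2OS arrays 2.49, 2.64 and 2.40. The same measure from GAPDH was 0.53, 0.59 and 0.55 on the KHOS arrays, and on the U-2OS arrays 0.46, 0.48 and 0.42, so it was below control on the KHOS miR-1 array and above it on the other 3 vector arrays. Of the 7 tested mesenchymal and osteosarcoma markers, 5 were lower on all 4 vector arrays, against 25.1% of all genes. Their median was -0.71, and none fell past the test (4 lower at an unadjusted p below 0.05, against 13.3% of all genes). The median difference of genes with a mean of 8 or higher was 0.00 on the KHOS vector arrays and -0.21 on the U-2OS vector arrays. The part of these measures and markers in the lower mitotic signal was not tested. With arrays scaled to genes with a mean of 8 or higher, an alternative chosen after seeing the data, 47 members were lower on all 4 vector arrays. After a further quantile normalization 49 were. The share of all genes lower on all 4 was not counted under these scalings.

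Among the 7 cyclin, CDK1 and CDC25 genes, 6 were lower on all 4 vector arrays, with a median of -0.65. CCNB1, which encodes cyclin B1, had 11.35 and 11.46 on the KHOS miR-1 and miR-null arrays and 12.15 on the KHOS control array. In U-2OS it had 11.20 and 11.53, against 12.14 on the control array. Each later pair of values is likewise that of the miR-1 and miR-null arrays, against the control array of the same line. All 4 vector values lay below both control values, with a fitted difference of -0.76 ± 0.14 (SE, adjusted p = 0.0624). CDK1, the kinase that cyclin B activates, had 11.24 and 11.41 against 12.25 in KHOS and 11.23 and 11.65 against 12.19 in U-2OS, again without overlap (-0.84 ± 0.16, adjusted p = 0.0627). CCNA2, cyclin A2, which acts in S phase and G2, had the largest difference of the group (-1.01 ± 0.16, adjusted p = 0.0515). Its values were 9.44 and 9.56 against 10.54 in KHOS, and 9.52 and 9.95 against 10.72 in U-2OS. CCNB2, cyclin B2, differed by -0.65, and CDC25B, a phosphatase that activates CDK1, by -0.52.

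The related phosphatase CDC25C had 7.85 and 8.11 against 8.41 in KHOS and 6.25 and 6.36 against 7.18 in U-2OS. Its vector arrays were lower within each line, but both KHOS vector values lay above the U-2OS control value, and the fitted difference was -0.65 ± 0.16 (adjusted p = 0.0942). CKS2, a small subunit that binds CDK1 and its relatives, was the exception of the group. It had 12.31 and 12.15 against 12.43 in KHOS, and 13.35 and 13.41 against 13.20 in U-2OS, so its vector arrays were lower in KHOS and higher in U-2OS. The fitted difference of CKS2 was -0.01 ± 0.14, with a 95% interval of -0.35 to 0.33.

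Genes of this group gave the textbook examples of cell-cycle promoters, in which CCAAT boxes sit upstream of a cell cycle genes homology region (CHR) with the letters TTTGAA, the element read by MuvB complexes. The promoter windows of CCNB2, CDC25C and CCNA2 are shown to give those letters beside the genes' values. They are RefSeq's windows from GRCh38.p14, 300 bases each, 250 before to 50 after the transcript start, read 5′ to 3′ on the strand of the gene. CCNB2 lies at chr15:59104896-59105195 on the plus strand, CDC25C at chr5:138331828-138332127 on the minus strand, where it is 1 of 4 windows and the one with the most motifs, and CCNA2 at chr4:121823834-121824133 on the minus strand. Capitals mark CCAAT and TTTGAA on either strand, so that CCAAT can also read as ATTGG and TTTGAA as TTCAAA.
CCNB2: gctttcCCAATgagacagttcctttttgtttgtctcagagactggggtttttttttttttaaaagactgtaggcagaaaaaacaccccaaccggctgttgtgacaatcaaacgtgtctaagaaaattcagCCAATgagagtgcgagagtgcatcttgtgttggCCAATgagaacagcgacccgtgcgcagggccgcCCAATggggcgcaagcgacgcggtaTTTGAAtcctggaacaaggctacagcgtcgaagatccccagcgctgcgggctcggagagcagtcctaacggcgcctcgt
CDC25C: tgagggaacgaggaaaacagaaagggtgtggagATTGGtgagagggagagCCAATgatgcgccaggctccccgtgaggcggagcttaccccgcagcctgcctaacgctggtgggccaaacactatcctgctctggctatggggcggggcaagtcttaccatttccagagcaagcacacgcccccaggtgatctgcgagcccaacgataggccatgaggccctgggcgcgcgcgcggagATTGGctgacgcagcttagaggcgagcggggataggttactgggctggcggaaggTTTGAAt
CCNA2: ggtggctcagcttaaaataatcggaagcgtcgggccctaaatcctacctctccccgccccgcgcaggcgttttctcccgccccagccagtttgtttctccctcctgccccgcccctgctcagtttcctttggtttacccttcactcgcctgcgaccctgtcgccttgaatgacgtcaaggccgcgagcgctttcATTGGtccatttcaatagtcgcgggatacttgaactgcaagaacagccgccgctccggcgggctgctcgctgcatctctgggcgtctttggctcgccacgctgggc
The CCNB2 window holds CCAAT with first bases at -244, -120, -87 and -54 from the transcript start and TTTGAA at -29. The CDC25C window holds 3 CCAAT matches, and its TTTGAA lies 44 bases after this start. An overlapping CDC25C window, of another transcript start, places the same TTTGAA at -30 and its nearest CCAAT at -85. The CCNA2 window holds 1 CCAAT match, at -56, and no exact TTTGAA.

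RefSeq windows were found for 48 of the 55 members. CCAAT was present in at least 1 window of 83.3% of those members, against 42.1% of 15843 protein-coding genes. TTTGAA was present in 72.9% of the members, against 15.8% of protein-coding genes, and both motifs together in 62.5%, against 8.17%. TTTAAA, a variant that reads the same on both strands and was counted separately even where it touched TTTGAA, was present in 31.2% of members and 12.8% of all. Of 22 genes of DNA replication with a window, 1 held TTTGAA. Across member windows the median first base was -26 for TTTGAA and -76.5 for CCAAT. The letters did not sort the members by their difference on vector arrays: the median was -0.64 for the 35 members with TTTGAA and -0.64 for the 13 without. A match is a run of letters and no evidence of binding, and no window was found for AURKA, BUB3, TTK, UBE2C, BIRC5, TPX2 and FOXM1.

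The 3 mitotic kinases of the set were lower on all 4 vector arrays, with a median of -0.52. PLK1, polo-like kinase 1, which acts in centrosome maturation and mitotic entry, had 6.33 and 6.37 against 6.90 in KHOS and 6.16 and 6.49 against 6.66 in U-2OS. Its difference was -0.44 ± 0.15 (adjusted p = 0.166), and the smallest step was that of the U-2OS miR-null array. AURKA, the Aurora kinase of centrosomes and spindle poles, had 11.57 and 11.61 against 12.06 in KHOS and 10.19 and 10.38 against 11.15 in U-2OS. All KHOS arrays lay above all U-2OS arrays, with the vector arrays lower in each line (-0.67 ± 0.15, adjusted p = 0.0737). NEK2, a kinase of centrosome separation, differed by -0.52.

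All 5 spindle checkpoint genes were lower on the 4 vector arrays, with a median of -0.52 and a range of -0.61 to -0.37. BUB1, a checkpoint kinase of kinetochores, had 9.74 and 9.81 against 10.32 in KHOS and 9.77 and 10.05 against 10.58 in U-2OS. Its vector and control values did not overlap (-0.61 ± 0.14, adjusted p = 0.0788). MAD2L1, the checkpoint protein that binds CDC20, had 11.03 and 10.90 against 11.45 in KHOS and 11.29 and 11.65 against 11.97 in U-2OS, with a difference of -0.49 ± 0.15 (adjusted p = 0.135). TTK, the kinase that starts checkpoint signalling, differed by -0.59, BUB1B by -0.52 and BUB3 by -0.37.

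CDC20, which activates the anaphase-promoting complex, had 11.35 and 11.40 against 11.82 in KHOS and 11.05 and 10.95 against 11.69 in U-2OS. Its vector values lay below both control values (-0.57 ± 0.13, adjusted p = 0.0811). UBE2C, the ubiquitin-conjugating enzyme of that complex, differed by -0.53, and PTTG1, securin, the inhibitor of separase, by -0.23. PTTG1, CENPA and FOXM1 were each measured by a probe set of the _x_at type, which can share signal with other sequences. Of 16 other genes of the complex and its regulators, 11 were lower on all 4 vector arrays, against 25.1% of all genes. Their median was -0.19 and none passed the test (4 lower at an unadjusted p below 0.05, against 13.3% of all genes). FBXO5, an inhibitor of the complex, had the largest difference of that list, -0.70 (adjusted p = 0.0624).

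The 4 genes of the chromosomal passenger complex, which corrects wrong kinetochore attachments and later acts in cytokinesis, were lower on all 4 vector arrays with a median of -0.64. AURKB, the kinase of the complex, had 8.70 and 8.92 against 9.34 in KHOS and 7.08 and 7.04 against 7.92 in U-2OS (-0.69 ± 0.14, adjusted p = 0.0681). BIRC5, survivin, its targeting subunit, had 9.87 and 10.04 against 10.56 in KHOS and 10.31 and 10.38 against 10.98 in U-2OS, without overlap (-0.62 ± 0.13, adjusted p = 0.0663). For AURKB every KHOS array also lay above every U-2OS array. CDCA8, borealin, differed by -0.66 and INCENP, the scaffold, by -0.31.

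Of the 11 centromere and kinetochore genes, 10 were lower on all 4 vector arrays, with a median of -0.59. SPC24, a subunit of the NDC80 complex that grips spindle microtubules, had 7.59 and 7.80 against 8.80 in KHOS and 6.71 and 6.84 against 7.94 in U-2OS. All 4 vector values lay below both control values, and SPC24 fell by 1.13 on the log2 scale, a 2.19-fold lower level (SE 0.13, 95% interval -1.44 to -0.82, adjusted p = 0.0226). Its partners in the complex were lower as well, by values that did not pass: SPC25 differed by -0.93 (adjusted p = 0.0640), NDC80 by -0.64 and NUF2 by -0.49. Without any 1 of the 4 vector arrays SPC24 did not pass, with adjusted p-values of 0.0621 to 0.128. Another SPC24 probe set of lower signal had 4.78 and 4.88 against 4.99 in KHOS and 5.92 and 5.43 against 5.19 in U-2OS, higher on the U-2OS vector arrays, and the mean of both probe sets differed by -0.48 and did not pass.

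CENPA, the histone H3 variant that marks centromeres, had 8.32 and 8.25 against 8.72 in KHOS and 9.35 and 8.96 against 9.45 in U-2OS (-0.36 ± 0.15, adjusted p = 0.239). CENPI, of the inner kinetochore, had 7.08 and 7.05 against 7.69 in KHOS and 5.61 and 6.29 against 6.93 in U-2OS (-0.80 ± 0.21, adjusted p = 0.0991), and its lowest value was on the U-2OS miR-1 array. CENPN, which recognises CENPA nucleosomes, was the exception: 10.82 and 10.88 against 11.25 in KHOS, but 10.68 and 10.70 against 10.54 in U-2OS. Its difference was -0.13 ± 0.16 (adjusted p = 0.686). Another CENPN probe set, at 8.98 and 8.86 against 9.39 in KHOS and 8.46 and 8.49 against 8.93 in U-2OS, was lower on all 4 vector arrays. CENPF differed by -0.70, CENPE, a kinetochore kinesin, by -0.59, ZWINT by -0.48 and CENPK by -0.38.

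Kinetochore and centromere genes beyond the 55 had medians nearer to 0. Of 13 other kinetochore and checkpoint genes 9 were lower on all 4 vector arrays, with a median of -0.29, none past the test and 6 lower at an unadjusted p below 0.05. KNL1, which docks checkpoint proteins at kinetochores, differed by -0.80, and MAD1L1, a checkpoint protein, by 0.76 in the opposite direction. Of 11 other centromere genes 7 were lower on all 4, with a median of -0.29, none past the test and 4 at that unadjusted p. Over all genes tested, 25.1% were lower on all 4 and 13.3% were lower at that p.

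**Figure D3:**
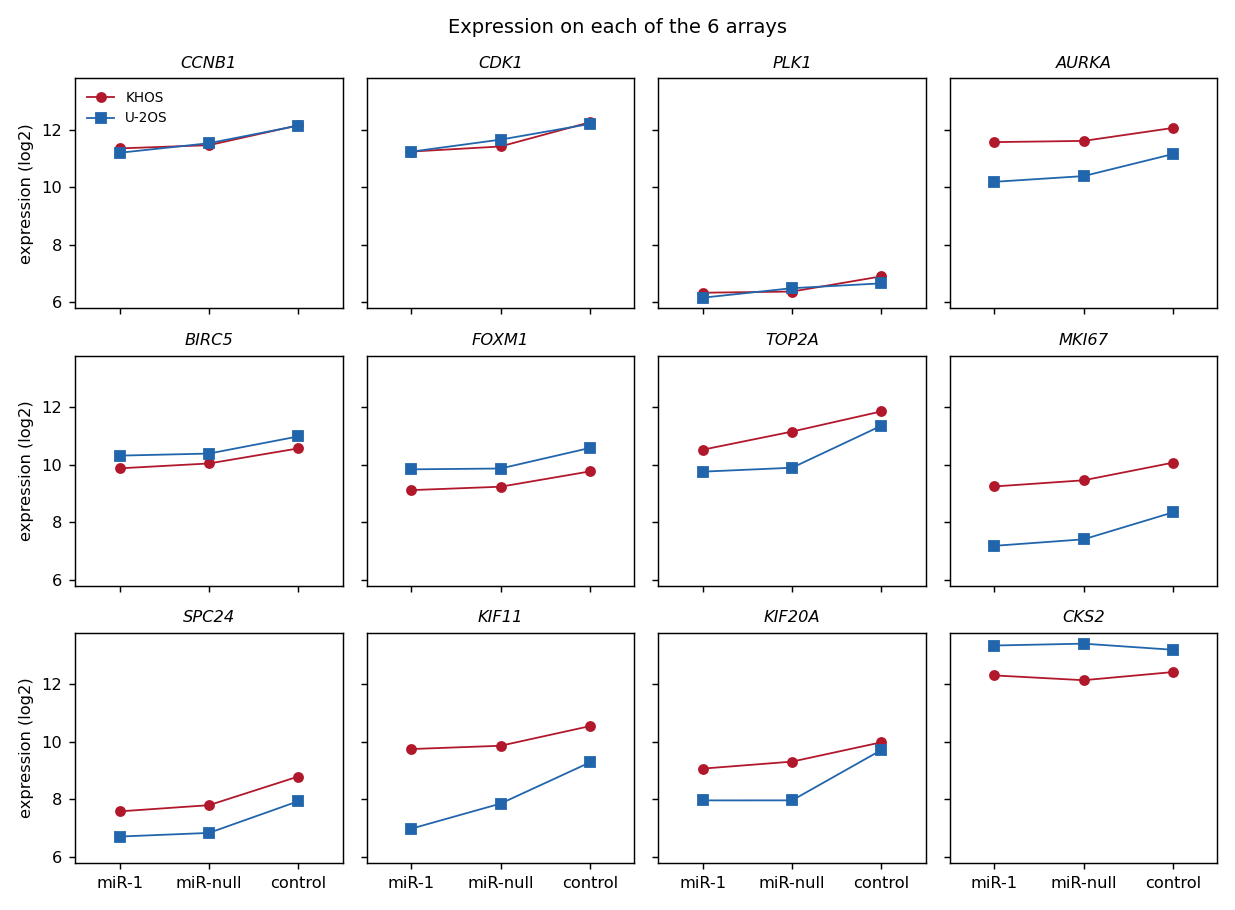
Expression of 12 of the mitotic genes (log2, vertical axis) on the miR-1, miR-null and control array of each line (horizontal axis), with KHOS as circles and U-2OS as squares and 1 array for each point. Control values are the highest of each line in 11 of the panels, and in CKS2 the U-2OS control is the lowest of its line.

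Kinesins are motors that walk along or take apart microtubules. Of 10 kinesin genes, 9 were lower on all 4 vector arrays, with a median of -0.67. KIF11, the motor that pushes spindle poles apart, had 9.75 and 9.87 against 10.55 in KHOS and 6.99 and 7.86 against 9.29 in U-2OS. It had the lowest fitted value of all 55 genes, -1.30 ± 0.31, and its wide error (adjusted p = 0.0895) came with a larger step in U-2OS than in KHOS. KIF20A, a motor of the central spindle, had 9.07 and 9.32 against 9.99 in KHOS and 7.97 and 7.97 against 9.72 in U-2OS, without overlap (-1.27 ± 0.22, adjusted p = 0.0582). The promoter window of KIF11 is shown as that of the member with the largest difference, at chr10:92592880-92593179 on the plus strand of GRCh38.p14, from RefSeq. Capitals again mark CCAAT and TTTGAA, both read here on the opposite strand.
KIF11: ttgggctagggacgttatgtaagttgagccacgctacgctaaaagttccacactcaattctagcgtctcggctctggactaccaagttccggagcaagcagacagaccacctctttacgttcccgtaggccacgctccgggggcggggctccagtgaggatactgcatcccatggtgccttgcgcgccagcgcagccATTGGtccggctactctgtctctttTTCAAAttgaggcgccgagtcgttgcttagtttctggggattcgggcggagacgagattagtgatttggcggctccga
It holds CCAAT at -53 and TTTGAA at -28 from the transcript start, 1 of each.

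KIF18A, a kinesin that limits microtubule growth at kinetochores, was the third exception to the general direction. It had 8.24 and 8.20 against 8.18 in KHOS and 7.33 and 7.08 against 8.27 in U-2OS, near control in KHOS and lower on both vector arrays in U-2OS. Its fitted difference was -0.51 ± 0.24 (adjusted p = 0.289). KIF20B, a kinesin of cytokinesis, had 9.24 and 9.32 against 9.45 in KHOS and 7.42 and 7.75 against 8.10 in U-2OS (-0.34 ± 0.16, adjusted p = 0.276). KIF23 differed by -0.79, KIF15 by -0.74, KIF4A by -0.70, KIF2C by -0.64, KIFC1 by -0.50 and KIF14 by -0.42.

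The 6 spindle microtubule proteins had a median of -0.75 and were lower on all 4 vector arrays. ASPM, a protein of spindle poles, had 10.32 and 10.56 against 11.05 in KHOS and 8.07 and 8.21 against 9.40 in U-2OS (-0.94 ± 0.18, adjusted p = 0.0627). The lines did not overlap for ASPM, and the vector arrays were the lower ones within each. DLGAP5 differed by -0.93, NUSAP1 by -0.84, PRC1, which bundles the midzone microtubules, by -0.66, HMMR by -0.61 and TPX2, the activator of AURKA, by -0.55.

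The 3 cytokinesis genes were lower on all 4 vector arrays as well. ANLN, anillin, a scaffold of the contractile ring, had 11.91 and 11.59 against 12.31 in KHOS and 10.98 and 11.27 against 11.85 in U-2OS (-0.64 ± 0.16, adjusted p = 0.0944). ECT2, which activates RhoA at the cleavage furrow, differed by -0.57 and CEP55, of the midbody, by -0.55.

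The group of chromosome and transcription genes had the lowest median of the roles, -0.88. TOP2A, the topoisomerase that untangles sister chromatids, had 10.52 and 11.14 against 11.85 in KHOS and 9.75 and 9.89 against 11.35 in U-2OS, without overlap (-1.27 ± 0.21, adjusted p = 0.0518). MKI67, the proliferation marker Ki-67 that coats mitotic chromosomes, had 9.24 and 9.45 against 10.06 in KHOS and 7.18 and 7.40 against 8.34 in U-2OS (-0.88 ± 0.15, adjusted p = 0.0576). FOXM1, the transcription factor that drives many of the other members, had 9.11 and 9.23 against 9.76 in KHOS and 9.83 and 9.86 against 10.58 in U-2OS (-0.66 ± 0.13, adjusted p = 0.0624). For both MKI67 and FOXM1 the control array was the highest of its line, with MKI67 higher and FOXM1 lower in KHOS.

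Neighbouring processes had different medians. All 8 condensin genes, whose products compact chromosomes, were lower on all 4 vector arrays (median -0.58), with NCAPD2 at 7.52 and 7.85 against 8.45 in KHOS and 8.12 and 8.50 against 9.74 in U-2OS. All 9 other late mitotic genes were lower (median -0.48), as were 9 of 12 cohesin genes (-0.32) and 10 of 14 centriole and centrosome genes (-0.34). The augmin complex, which branches spindle microtubules, had 3 of 7 lower (-0.19), and the MuvB, B-MYB and DREAM regulators 5 of 10 (-0.35). The DNA replication genes, 23 of 25 lower with a median of -0.65, had a median close to that of the mitotic genes. Over all genes tested, 25.1% were lower on all 4 vector arrays. None of the genes in these lists fell past limma's test. At an unadjusted p below 0.05, 7 condensin, 7 late mitotic, 5 cohesin, 6 centriole, 2 augmin, 4 MuvB or DREAM and 22 DNA replication genes were lower, counts to be set against 13.3% of all genes.

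Genes that restrain entry into mitosis were split. Of 7, 4 were lower on all 4 vector arrays, against 25.1% of all genes tested. The other 3 were higher on all 4, a direction for which the share of all genes was not counted. At an unadjusted p below 0.05, 3 were lower, against 13.3% of all genes. GADD45A, a stress-induced gene whose product inhibits the CDK1 and cyclin B complex, had 13.01 and 12.52 against 10.78 in KHOS and 13.16 and 13.06 against 11.85 in U-2OS, and it rose by 1.63 ± 0.21 (SE, adjusted p = 0.0328). In limma's test 46 of all 12958 genes rose. Without either KHOS vector array or the U-2OS miR-null array no gene passed, GADD45A and SPC24 included. CDKN1A, p21, a CDK inhibitor, had 10.20 and 10.11 against 9.23 in KHOS and 10.76 and 10.66 against 10.32 in U-2OS (0.66 ± 0.16, adjusted p = 0.0895). WEE1, which phosphorylates and blocks CDK1, was higher by 0.19, while PKMYT1, CHEK1, CHEK2 and SFN were lower.

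At or above the tested level, most probe sets that were not chosen gave the same direction as the chosen ones. Of the 90 member probe sets at or above the tested level, 82 were lower on all 4 vector arrays, and of the 35 among them that did not represent their gene, 30 were. The 5 others were probe sets of CCNB2, CDC25C, CENPN, SPC24 and ASPM. Of the 18 probe sets below the tested level, 5 were lower on all 4. The share of all probe sets lower on all 4 was not counted, at or above that level or below it. Probe sets of the same gene are also not independent, so these counts describe direction only.

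The empty vector alone was then set against control. The miR-null difference was negative in all 55 members, with a median of -0.56 against -0.02 over all genes tested. No member passed in limma (0 of 55, against 0% of all genes), 41 were lower at an unadjusted p below 0.05, against 5.87% of all genes, and the smallest adjusted p was 0.231. The median of the miR-null array was -0.52 in KHOS and -0.61 in U-2OS, and that of the miR-1 array -0.57 and -0.84. These comparisons share their control arrays.

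The comparison in the study's title, miR-1 against the empty vector, gave small differences for the mitotic genes. The median was -0.12, against -0.04 over all genes tested, and the lowest was that of KIF11. In limma 0 of 55 members passed (0% of all genes), 0 had an unadjusted p below 0.05, and the smallest adjusted p was 0.9999. The median half-width of the 95% interval was 0.44, so differences of the size seen here could not be told from 0 with 1 array for each line and treatment. By direction alone, 33 members were lower with miR-1 than with miR-null in both lines, against 33.8% of all genes. In both lines 4 members were higher, against 1943 of all 12958 genes tested. By the representative probe sets, the count lower with miR-1 by 1.2-fold or more in both lines was 0 of 55, against 2.2% of all genes. Other probe sets of CDK1, CENPI, TOP2A and ASPM at or above the tested level were lower by that fold in both lines. One of CDK1 had -0.32 in KHOS and -0.36 in U-2OS, and one of ASPM -0.29 and -0.76. The share over all probe sets is not given here.

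In KHOS 38 members were lower with miR-1 than with miR-null, with a median of -0.06 and 2 of them lower by 1.2-fold, against 60.1% and 11.8% of all genes. In U-2OS 46 were lower, with a median of -0.18 and 22 by that fold, against 58.7% and 19.2% of all genes. Over all genes the medians were -0.05 in KHOS and -0.05 in U-2OS. KIF11 had values of -0.11 for KHOS and -0.87 for U-2OS (fitted -0.49 ± 0.34), CENPI by 0.04 and -0.68 (-0.32 ± 0.23), and TOP2A by -0.63 and -0.14 (-0.38 ± 0.22). Among the highest values, CENPA had 0.07 in KHOS and 0.39 in U-2OS (0.23 ± 0.18), KIF18A 0.03 and 0.25 (0.14 ± 0.30), and CKS2 0.17 and -0.06 (0.05 ± 0.19). By the representative probe sets, each of the 3 lowest values was thus larger in size in 1 line. With the U-2OS miR-1 array left out KIF11 stood at 0.073 and CENPI at 0.036. Another CENPI probe set at or above the tested level had -0.32 in KHOS and -0.33 in U-2OS. Another TOP2A probe set had -0.35 and -0.41, so for CENPI and TOP2A the difference between the lines depended on the probe set. The ranking miR-1 below miR-null below control held in 38 members in KHOS and 44 in U-2OS. Its share over all genes was not counted, so these counts cannot be read as a result about the members. With arrays scaled to genes with a mean of 8 or higher, 24 members were lower with miR-1 than with miR-null in both lines, and after quantile normalization 25. Under these scalings the share of all genes was not counted.

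**Figure D4:**
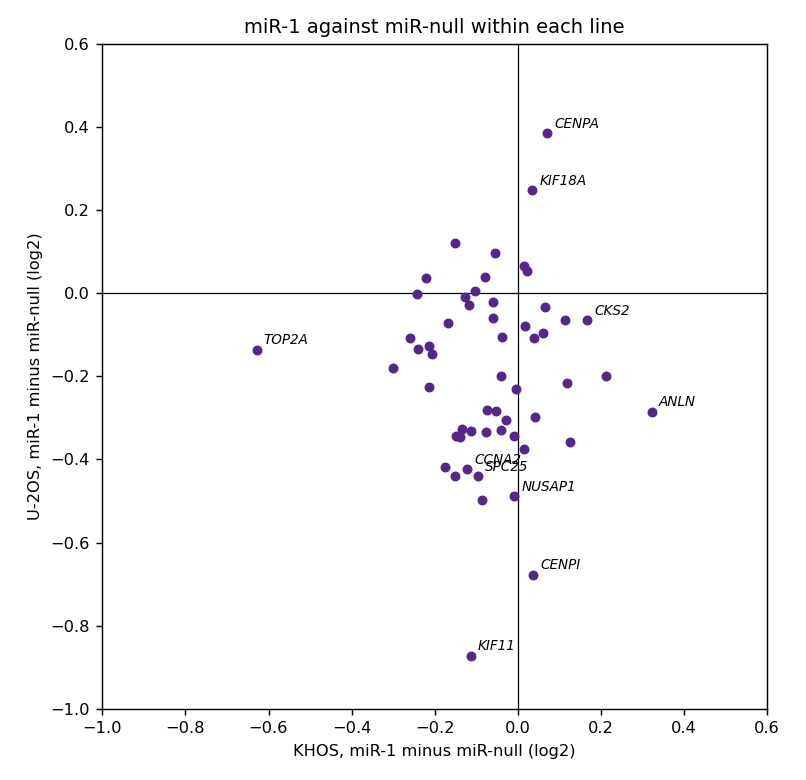
Difference between the miR-1 and the miR-null array (log2) in KHOS (horizontal axis) and in U-2OS (vertical axis), with 1 point for each of the 55 mitotic genes. Below 0 on both axes lie 33 genes, and KIF11, CENPI and TOP2A stand apart along 1 axis each.

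The lines were compared at matched treatment. Of the 55 members, 27 were higher in KHOS, against 30.3% of all genes tested, and 5 were lower in KHOS, against 24.5% of all genes, while 23 did not pass. The median was 0.47, against 0.00 over all genes and 0.22 over genes with a mean of 8 or higher. It was 0.55 on the miR-1 arrays, 0.45 on the miR-null arrays and 0.28 on the control arrays. The split depends on the scaling, which moved the median of all genes: 21 higher and 10 lower after quantile normalization, with the median of all genes at -0.17, and 22 and 9 after scaling to genes with a mean of 8 or higher, with that median at -0.27. The median of the members was then 0.15 and 0.20. Without the KHOS or the U-2OS miR-null array, 21 members passed in all. The share of all genes past the test under these alternatives is not given here, so these counts cannot be set against all genes.

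The 6 largest line differences were those of ASPM, KIF11, MKI67, AURKB, KIF20B and CDC25C. ASPM was 4.22-fold higher in KHOS (2.08 ± 0.18 on the log2 scale, adjusted p = 0.000273) and KIF11 4.04-fold (2.01 ± 0.28, adjusted p = 0.00158). MKI67 was 3.86-fold higher (1.95 ± 0.15, adjusted p = 0.000157), AURKB 3.12-fold (1.64 ± 0.15, adjusted p = 0.000346), KIF20B 2.99-fold (1.58 ± 0.16, adjusted p = 0.000411) and CDC25C 2.88-fold (1.53 ± 0.16, adjusted p = 0.000539). Every KHOS array lay above every U-2OS array for all 6 of these genes, by the values given above. By role, 6 of 11 centromere and kinetochore genes were higher in KHOS, as were 5 of 10 kinesins. So were 4 of 6 spindle microtubule proteins and 3 of 5 checkpoint genes. The cytokinesis group and the chromosome and transcription group each had 2 of 3 higher. Of the cyclin, CDK1 and CDC25 genes 2 of 7 were, and of the passenger complex 1 of 4. The mitotic kinases had 1 of 3, as did CDC20, UBE2C and PTTG1. These counts, against 30.3% of all genes higher in KHOS, are of few genes each.

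The 5 genes lower in KHOS were CKS2 (-1.03 ± 0.16, adjusted p = 0.00236), CENPA (-0.82 ± 0.15, adjusted p = 0.00437), FOXM1 (-0.72 ± 0.14, adjusted p = 0.00574), MAD2L1 (-0.51 ± 0.16, adjusted p = 0.0312) and BIRC5 (-0.40 ± 0.14, adjusted p = 0.0451). BIRC5 did not pass without any 1 of the vector arrays, nor MAD2L1 without either miR-null array, and with arrays centred on their medians the values were -0.28 for BIRC5 and -0.40 for MAD2L1, neither past the test. CCNB1 (0.03 ± 0.14) and CDK1 (-0.06 ± 0.14) did not pass. Other probe sets of these genes read otherwise. Another pair of CDK1 probe sets differed by -0.76 and -0.78 between the lines. A second CCNB1 probe set had 10.07, 10.18 and 10.93 on the KHOS miR-1, miR-null and control arrays, against 7.56, 8.02 and 9.23 in U-2OS. A second CCNA2 probe set had 8.27, 8.55 and 9.19 in KHOS, against 9.59, 9.82 and 10.43 in U-2OS, while the representative one differed by -0.21 between the lines. The line difference depended on the probe set for these genes, whereas the lower vector values were seen with each of them.

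Of the 32 members that passed between the lines, 16 had another probe set at or above the tested level. In 12 of these every other probe set had the same sign, and in BUB3, MAD2L1, BIRC5 and SPC24 at least 1 had the opposite sign. Array measures and some markers differed between the lines too. The spike-in mean was lower in KHOS on all matched arrays, and the epithelial marker EPCAM had 8.50, 8.70 and 8.43 in KHOS against 5.49, 5.52 and 5.96 in U-2OS. Among the 4 epithelial markers KRT18 was 12.28 or higher on every array, while CDH1 and KRT5 were below the tested level. The part of these in the line differences was not tested.

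**Figure D5:**
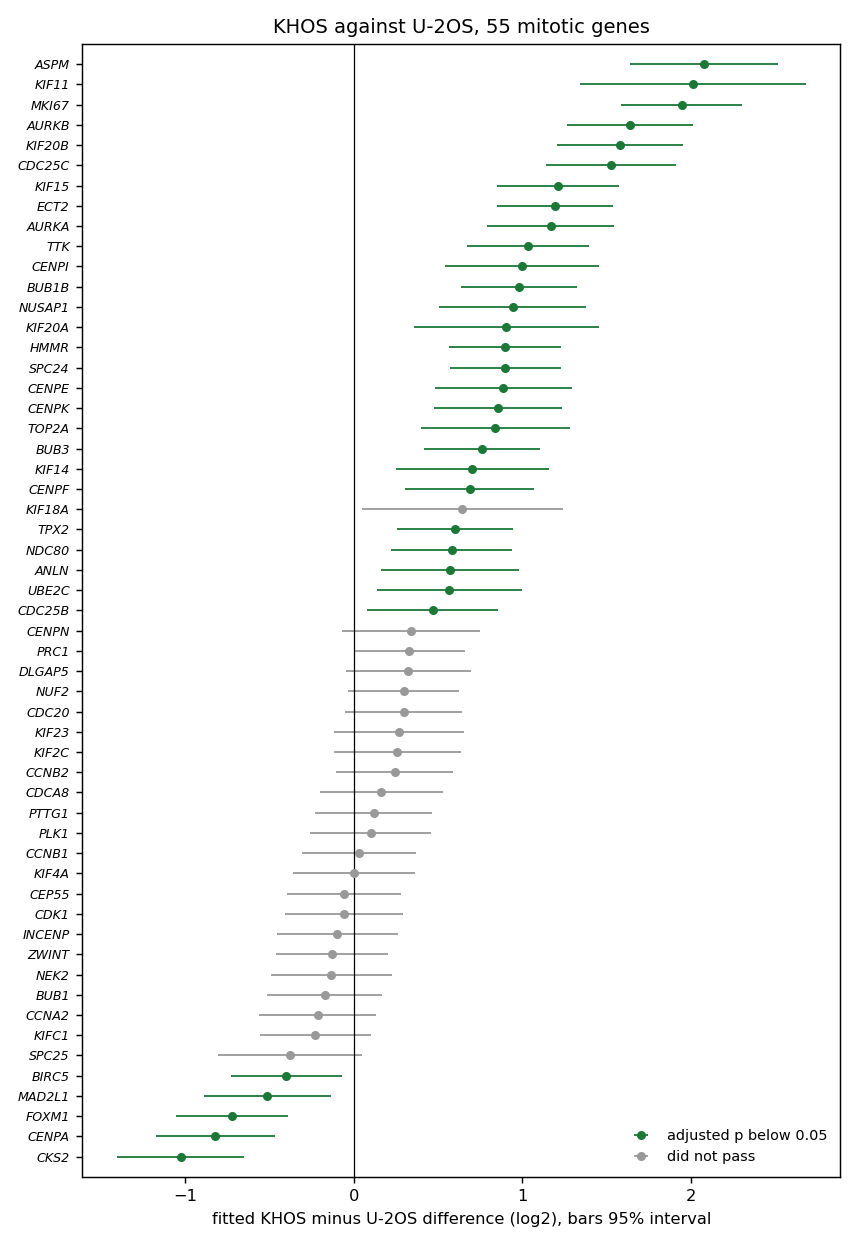
Fitted KHOS minus U-2OS difference (log2, horizontal axis) with its 95% interval for the 55 mitotic genes, in falling order; green genes had an adjusted p below 0.05 and grey genes did not. ASPM (2.08) stands at the top and CKS2 (-1.03) at the bottom, with 27 green genes right of 0 and 5 left of it.

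Whether the vector difference itself differed between the lines was tested as an interaction. The spread in this test came from the miR-1 and miR-null arrays of each line, and each line had 1 control array. The median vector difference of the members was -0.53 in KHOS and -0.72 in U-2OS. Their KHOS minus U-2OS difference had a median of 0.21, against 0.14 over all genes and 0.24 over genes with a mean of 8 or higher. In limma 0 of 55 members passed, against 2.28% of all genes, 7 had an unadjusted p below 0.05, against 22.3% of all genes, and the smallest adjusted p was 0.0621, for KIF18A (1.10 ± 0.25). The other large values were those of KIF11 (1.13 ± 0.44, adjusted p = 0.178) and KIF20A (0.96 ± 0.25, adjusted p = 0.0825), both lower by more in U-2OS. After quantile normalization the medians of the lines were -0.56 in KHOS and -0.52 in U-2OS, and after scaling to genes with a mean of 8 or higher -0.58 and -0.50, so the order of the lines depended on the scaling.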

How the data were processed

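Values were log2 expression values that the authors made from the scanned arrays by RMA normalization (the Qlucore program is named in the series' design text, RMA also in the submitters' processing notes). They were used as deposited. The probe annotation gave 41091 probe sets 1 gene symbol, and 62 control probe sets were left out. Each gene took its probe set with the highest mean over the 6 arrays, and 12958 of 19775 genes reached the median of all probe sets, 5.11. RMA compresses differences between low signals, and the number of arrays limits the precision.

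Differences were tested on all 6 arrays with limma 3.58.1 (lmFit and eBayes) in R 4.3.3, with p-values adjusted by Benjamini-Hochberg over all genes tested and 0.05 as the threshold. Treatment and line were additive terms, with 2 residual degrees of freedom, or 3 where both vectors were joined. The line difference in the vector change was an interaction term, fitted with both vectors joined and 2 residual degrees of freedom. The fits were checked on simulated data. The design text names a Mann-Whitney test, which with 4 vector and 2 control arrays cannot go below an exact two-sided p of 0.133 without ties.

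The members, gene lists and tests were chosen with earlier results of these data known. Named genes were 8 well-known members, the members that passed a test (the 6 largest in each direction where over 12 passed), the largest and smallest differences in each comparison and the largest in each role. Alternatives were another normalization, centring, level filter, probe set rule, prior variance and test, all probe sets, and each array left out. The scaling to genes with a mean of 8 or higher was added after seeing the data.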

Additional observations from a re-analysis of the deposited data

Results flagged for a closer look

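In 3 of the 55 mitotic genes both vector arrays of one line lay on one side of control and both of the other line on the other side. The share of all genes with such a pattern is not given here, so this count cannot be read as a result about the members. For CENPN the pattern depended on the probe set, as given above. The interaction test gave KHOS minus U-2OS differences in the vector change of -0.55 for CENPN, -0.38 for CKS2 and 1.10 for KIF18A, with adjusted p-values of 0.203, 0.378 and 0.0621 in limma, so none passed. Each line had 1 control array.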

How the results depend on the processing

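The number of arrays limits every count here, and 1 array can decide it. The direction of the vector difference held more widely than its calls: the median of the members ran from -0.66 to -0.54 over 9 alternatives and from -0.72 to -0.53 with 1 array left out, but the number of members past the test changed. It was 1 as reported, where 16 of all 12958 genes fell. After quantile normalization it was 3 (35 of 12973 genes), and with no filter on low values 3 (40 of 19775). With the 75th percentile as filter it was 25 of 52 (229 of 7890 genes), and with the mean of a gene's probe sets 14 of 54 (118 of 11584). Probe sets of the plain type gave 8 of 49 (75 of 11984), and a trended prior variance 35 (374 of 12958). Scaled to genes with a mean of 8 or higher it was 7 (83 of 12958). Over all probe sets it was 2, and by the exact Mann-Whitney test, which cannot reach the threshold, 0. With 1 array left out it ran from 0 (without any 1 vector array) to 36 (without the KHOS control array, where 11.7% of all genes fell), and was 5 without the U-2OS control array (0.571%). The miR-null count ran from 0 to 21 (21 without the KHOS control array, where 8.01% of all genes fell, and 4 without the U-2OS control array, where 0.463% did), with medians of -0.66 to -0.48. For CKS2 the vector difference was 0.0086 after quantile normalization, 0.073 scaled to genes with a mean of 8 or higher, and -0.20 to 0.18 with 1 array left out. For CENPN that range was -0.40 to 0.15.

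With 1 array left out, the miR-1 minus miR-null median ran from -0.24 to -0.036. The ranges were -0.21 to 0.50 for KIF18A, -0.13 to 0.23 for CKS2, -1.06 to 0.073 for KIF11 and -0.68 to 0.036 for CENPI.

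For KHOS minus U-2OS the median of the members was 0.15 after quantile normalization, 0.31 over all probe sets and 0.20 scaled to genes with a mean of 8 or higher, and the count past the test ran from 21 to 35 with 1 array left out. MAD2L1 was 0.74 with its plain probe set. The median line difference in the vector change was -0.046 after quantile normalization and -0.070 scaled to genes with a mean of 8 or higher, and 0.055 to 0.27 with 1 array left out. Its count was 2 with the 75th percentile filter, 1 with the mean of probe sets, 3 with the trended variance, and 0 to 3 with 1 array left out. For these counts and those between the lines, the share of all genes past the test under the same setting is not given here. They cannot be read as a result about the members. The causes were not tested. The line was a term in every fit, so vector and control arrays were compared within lines, and the labels give no replicate numbers for a further block.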
